A study of Mus musculus with 13 samples.

Results

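HSPCs that carried heterozygous mutant p53 were compared with control HSPCs by RNA-Seq, with 3 p53mut mice against 3 control mice, which made up 6 of the 13 samples of the series. The members were taken by genotype and treatment from the sample labels. All 6 libraries came from Lin- cKit+ bone marrow cells, sorted as 50000 cells a mouse. The remaining samples were 3 Nras G12D mice and 4 moribund NPmut mice, which carried both mutations, and they entered the fit to share the estimate of spread between mice. The Nras G12D mice carried Mx1-Cre and 1 mutant Nras allele (G12D/+). They received 3 injections of 100 μg pI-pC from about 6 weeks, as did the control and p53mut mice. The NPmut mice carried Mx1-Cre with both mutations heterozygous and received no pI-pC.

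Control mice carried Mx1-Cre alone. The p53mut mice carried Mx1-Cre and 1 p53 allele with a lox-stop-lox cassette before the R172H missense mutation, with the other allele WT (R172H/+). Both groups were on a C57BL/6J background and received 3 injections of 100 μg pI-pC every other day from an age of about 6 weeks, so the controls had the same treatment and the same Cre. The samples were labelled as age-matched to the NPmut mice, and the labels do not give the age in weeks at harvest. Cre was driven by the interferon-responsive Mx1 promoter, which is active in many tissues and not in blood cells alone. A count per gene does not separate the WT from the R172H transcript, so the share of recombined cells in each mouse was not measured here.

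p53 is a transcription factor that is kept at a low protein level by MDM2 and that rises after DNA damage, when it drives genes for cell-cycle arrest, such as Cdkn1a, and for apoptosis, such as Bax and Bbc3. Mouse R172H corresponds to a hotspot missense mutation of human tumors that disturbs the fold of the DNA-binding domain. Mutant protein can act against the remaining WT protein, and in other cell types it has been linked to mevalonate enzymes, proteasome subunits, chromatin enzymes and NF-κB through its binding to other transcription factors. In unstressed marrow p53 is known for restraining stem cell division.

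The deposited counts summed to 16891496, 16016795 and 18383281 in control mice 1, 2 and 3 and to 13357504, 13637926 and 16712599 in p53mut mice 1, 2 and 3. The cells carried the transcripts of the sorted gate. Kit, the receptor used for sorting, had 585, 511 and 583 CPM (counts scaled to a common total) of the library total in control mice and 560, 495 and 736 in p53mut mice. Some markers of mature cells were scarce, with Cd3e at 0 to 7 counts, Ly6g at 0 to 7 counts and Cd79a at 0 to 8 counts in each library. Others were not, with 175 to 1590 counts of the neutrophil gene S100a9, 877 to 1468 of the B lymphoid gene Ighm and 619 to 1156 of the T and NK gene Nkg7, all chosen after seeing the data. Mouse 1 of each group was male by its Y-linked genes and mice 2 and 3 were female by Xist, so sex was balanced between the groups.

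No gene met the criteria for a DEG (adjusted p under 0.05 and a change of at least 2-fold) among 17795 genes tested with edgeR, so the share called was 0%. No gene passed the adjusted p-value alone, and DESeq2 called 2 genes. An unadjusted p under 0.05 was held by 412 genes (2.32%) in the fit to 13 libraries, by 956 of 16685 genes (5.73%) in the fit to the 6 libraries, by 923 of 17192 (5.37%) in the 9 libraries of treated mice and by 1410 of 16685 (8.45%) with the replicate block, so this number depended on the fit. A share of 0.05 is expected where no gene differs, and the fit to 13 libraries lay below it. That fit takes its spread from all groups, the NPmut mice included, so its p-values and intervals do not reflect the 6 mice alone. Over all genes the log2 fold change had a median of 0.00, and its absolute value had a median of 0.14. The distance between mice was also compared within and between genotypes. The median absolute log2 difference over genes with a mean of at least 1 log2 CPM was 0.17 to 0.18 for the 3 pairs of control mice, 0.17 to 0.20 for the 3 pairs of p53mut mice and 0.17 to 0.21 for the 6 pairs of a control and a p53mut mouse with different numbers, and these ranges overlapped. The 3 pairs of a control and a p53mut mouse with the same number were at 0.16 to 0.17, and no pair within a genotype shares a number.

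An absent call does not show an absent effect, so each fold change was bounded by its 95% interval. The whole interval lay inside a 2-fold change in either direction for 11277 of 17795 genes (63.4%), inside 1.5-fold for 7673 genes (43.1%) and inside 3-fold for 14373 genes (80.8%). The bound depended on expression. Among the 3184 genes at 6 log2 CPM or more, 98.1% were held within 2-fold and 89.7% within 1.5-fold. Among the 4760 genes from 4 to 6 log2 CPM these shares were 96.7% and 80.8%, and among the 3499 genes from 2 to 4 log2 CPM they were 79.1% and 27.8%. Below 0 log2 CPM, 0.116% of 2594 genes were held within 2-fold, so changes of 2-fold in weakly expressed genes were not bounded here. Of 10802 protein-coding genes with at least 1 log2 CPM, 90.4% were held within 2-fold. The intervals of 9 genes lay wholly beyond 2-fold before any adjustment for the number of genes tested.

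**Figure D1:**
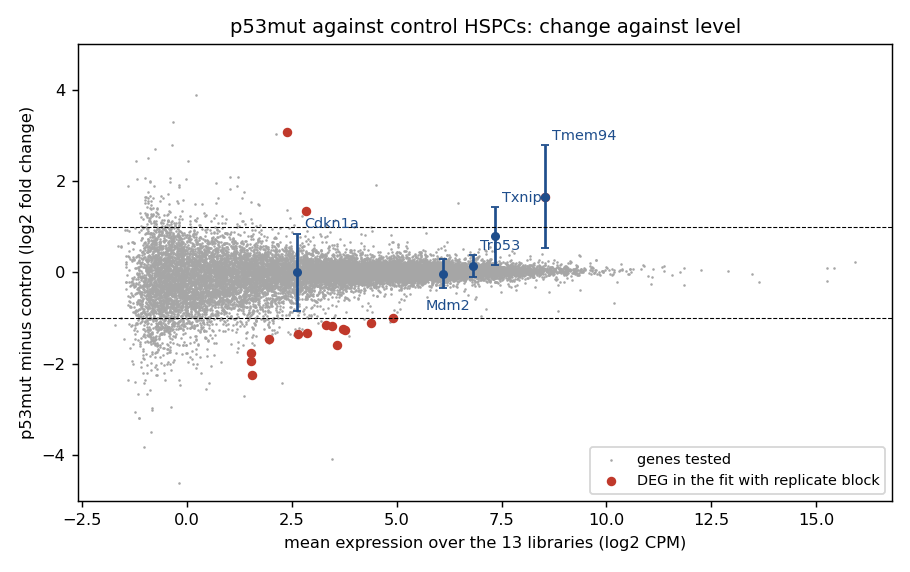
Each point is 1 of the genes tested, with the mean log2 CPM over the 13 libraries on the horizontal axis and the log2 fold change of p53mut against control on the vertical axis, which leaves out 1 gene beyond 5. Dashed lines mark 2-fold, red points are DEGs of the fit with the replicate block, and blue points with 95% intervals are named genes (Tmem94 is also such a DEG). The cloud narrows with expression around a median of 0.00.

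**Figure D2:**
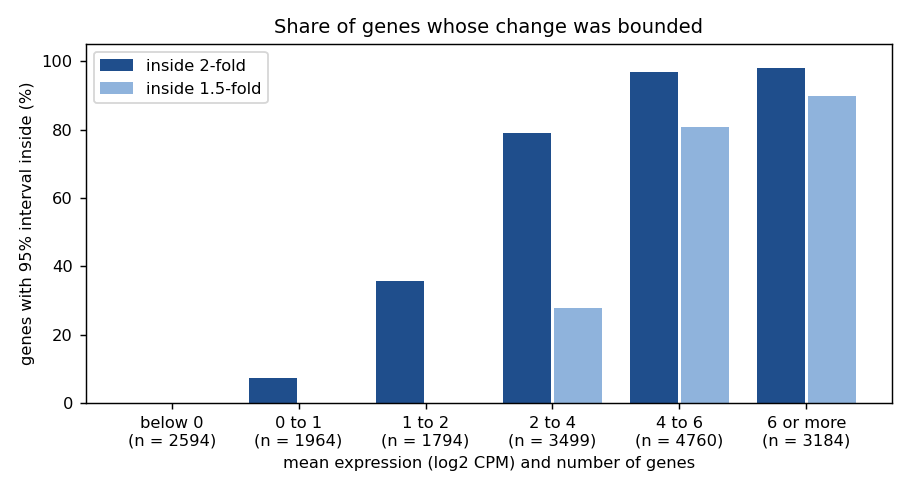
Bars give the percentage of genes whose 95% interval lay inside 2-fold (dark) or 1.5-fold (light) by mean log2 CPM, with the number of genes under each bin. The share inside 2-fold goes from 0.116% in the lowest bin to 98.1% in the highest.

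Trp53, the mutated gene, lies at chr11:69580359-69591873 (plus strand, GRCm38). It had 109, 123 and 111 CPM in control mice and 128, 126 and 123 CPM in p53mut mice. The p53mut values lay just above the control values without overlap, and control mouse 2 was within 1 CPM of p53mut mouse 3. The log2 fold change was 0.13 (SE 0.11, 95% interval -0.10 to 0.37), which held the total Trp53 transcript well within 1.5-fold of control. Among genes within 1 Mb of Trp53, 72 were tested and their median log2 fold change was 0.04. The widest shift there was that of the circadian repressor gene Per1, with 47.2, 37.8 and 39.6 CPM in control mice and 73.1, 124 and 158 CPM in p53mut mice. Its log2 fold change was 1.52 (SE 0.48), and its adjusted p of 1.00 (0.593 with the replicate block) did not pass. It was a DEG with the replicate block when both mice numbered 1 were left out (1.86, adjusted p = 0.000561), an alternative chosen after seeing the data. Nras G12D mice, which have no mutant p53, had 77.7, 118 and 67.5 CPM of Per1. CPM of single genes are given here and below after TMM normalization.

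The canonical p53 targets had estimates in both directions. Of 50 target genes 48 passed the filter on low counts (Gdf15 and Zfp365 did not), 23 had a higher and 25 a lower estimate in p53mut mice, and their median log2 fold change was -0.01 beside 0.00 over all genes. None was a DEG, against a background of 0% of all genes. Mdm2, which encodes the ubiquitin ligase that degrades p53, had 59.7, 63.0 and 71.8 CPM in control mice and 73.6, 58.0 and 59.5 CPM in p53mut mice. The groups overlapped, and the log2 fold change was -0.03 with a 95% interval of -0.35 to 0.30. The cyclin G1 gene Ccng1 had 71.4, 68.0 and 60.6 CPM against 81.2, 56.1 and 60.3 CPM, with a log2 fold change of -0.02 (SE 0.15). Bax, which encodes a pore-forming apoptosis protein, had 14.6, 15 and 15 CPM against 16.6, 13.6 and 15.2 CPM, with a log2 fold change of 0.03 (SE 0.18). For these 3 genes the whole interval lay inside 1.5-fold.

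Cdkn1a, which encodes the cell-cycle inhibitor p21, was weakly expressed in every mouse. It had 79, 55 and 59 counts in control mice and 79, 41 and 37 counts in p53mut mice, or 4.54, 3.39 and 3.02 CPM against 5.84, 3.03 and 2.14 CPM. The mice of both groups overlapped, and the log2 fold change of 0.00 had a 95% interval of -0.85 to 0.85, which lay inside 2-fold and reached beyond 1.5-fold. Its promoter is shown because Cdkn1a is a direct target of p53. The 250 bases before the RefSeq start (GRCm38.p6, plus strand, chr17:29090729-29090978) held 1 match to the p53 response element, in capitals, from 73 to 42 bases before the start, with up to 13 bases allowed between its half-sites.
Cdkn1a: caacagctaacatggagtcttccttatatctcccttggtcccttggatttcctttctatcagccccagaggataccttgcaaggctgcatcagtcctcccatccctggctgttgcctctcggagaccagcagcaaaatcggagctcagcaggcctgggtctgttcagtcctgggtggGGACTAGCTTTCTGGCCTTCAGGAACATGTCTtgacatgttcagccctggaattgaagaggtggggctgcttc
The motif reads the same on both strands and was found in 0.0639% of 32851 RefSeq promoters of this length. Promoters were matched for 40 of the 50 targets, and Cdkn1a was the 1 target with a match in this window. Sites farther upstream or inside the genes were not searched, and binding of p53 to this match was not measured.

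No target passed the adjusted test, with or without the replicate block, and the extremes follow. The interval left out 0 for 1 target above and 1 below, where 1.05% of all genes lay above and 1.27% below. The first was the kinase gene Plk3, with 1.5, 1.66 and 1.89 CPM in control mice against 2.51, 2.88 and 4.39 CPM in p53mut mice. The second was the costimulatory ligand gene Cd80, with 7, 11 and 7 counts against 0, 2 and 0 counts, a ratio of summed counts per library total of 0.0939 (exact 95% interval 0.0108 to 0.376, for counting error alone). All 6 libraries held few reads of Cd80, and the p53mut mice were the lower. It passed the filter only through libraries of other groups and was not tested in the fit to the 6 libraries, so its value is not taken as a change. The groups did not overlap for 3 targets that were higher and 3 that were lower, beside 5.41% and 5.72% of all genes. The RNA-binding protein gene Zmat3 had 7.82, 5.61 and 9.42 CPM against 7.83, 2.96 and 3.93 CPM, and p53mut mouse 1 was at the level of the controls. Its log2 fold change was -0.64 (95% interval -1.46 to 0.19), and -1.14 to -0.38 when 1 mouse was left out. Among targets with a mean of at least 1 log2 CPM, the long noncoding RNA Trp53cor1, which lies beside Cdkn1a, had the lowest estimate (-0.90, SE 0.44) and the mTORC1 inhibitor gene Ddit4 the highest (1.18, SE 0.63). Ddit4 had 2.76, 2.28 and 2.87 CPM in control mice and 4.29, 3.77 and 9.82 CPM in p53mut mice. These did not overlap, and without p53mut mouse 3 the estimate was 0.62, below that of Plk3 (0.68).

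**Figure D3:**
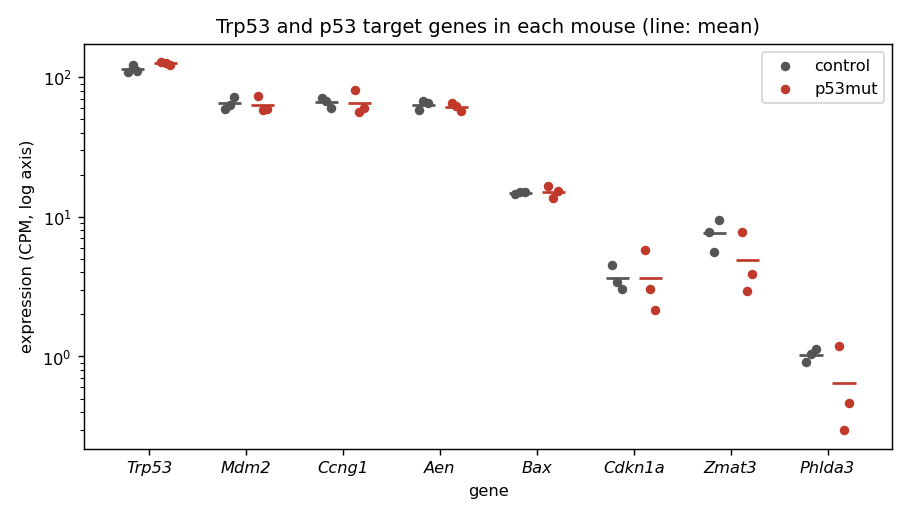
CPM of Trp53 and 7 p53 target genes in each control (grey) and p53mut (red) mouse on a log axis, with a line at the mean of 3 mice. The mice overlap for the targets drawn, while Trp53 spans 109 to 123 CPM in control and 123 to 128 CPM in p53mut mice.

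Regulators of p53 protein, among them ubiquitin ligases and deubiquitinases, were tightly bounded. All 25 tested regulators had intervals inside 2-fold, and their median log2 fold change was 0.02. The groups did not overlap for 4 regulators that were higher and 0 that were lower, beside 5.41% and 5.72% of all genes. The extremes of the regulators were the ligase gene Cop1 (-0.28, SE 0.23) and Ppp1r13b (0.27, SE 0.18), which encodes the p53-binding protein ASPP1. The 21 tested members of the p53 family and of the factors known to bind mutant p53 were likewise all inside 2-fold, with a median of 0.03, and the interval left out 0 for 2 above and 1 below, where it did so for 1.05% and 1.27% of all genes. Stat3, a transcription factor of cytokine signaling, had 122, 93.4 and 106 CPM in control mice and 135, 138 and 128 CPM in p53mut mice. Rela, which encodes the p65 subunit of NF-κB, had 83.4, 87.9 and 79.1 CPM against 100.5, 98.7 and 105 CPM. The p53mut values lay above the control values for both genes, with log2 fold changes of 0.32 (SE 0.11) and 0.28 (SE 0.10). Nras G12D mice had 133, 143 and 131 CPM of Stat3 and 104, 114 and 106 CPM of Rela, within or above the p53mut range, so these levels were not particular to mutant p53. Nfyc, a subunit of the CCAAT-binding factor NF-Y, had 25.0, 26.7 and 23.5 CPM against 20.5, 21.3 and 19.1 CPM, all lower in p53mut mice, with a log2 fold change of -0.31 (SE 0.13). None of the 3 passed the adjusted test, with or without the replicate block.

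Programs linked to mutant p53 in other cells held no DEG in the fit to all libraries. The 33 proteasome subunit genes were all bounded within 2-fold with a median log2 fold change of 0.02, and so were the 12 chromatin enzymes, with a median of 0.05 and a highest estimate for the histone acetyltransferase gene Kat6a (0.23, SE 0.19). The lowest were the methyltransferase subunit gene Ash2l (-0.14) in the latter list and Psma5 (-0.22) among proteasome subunits, where Psma2 was highest (0.17). The 24 DNA repair genes and the 31 genes of DNA replication and mitosis were also all inside 2-fold, with medians of -0.02 and -0.03. Within these, Fancd2 of the Fanconi anemia pathway (-0.29, SE 0.12) and the mitotic cyclin gene Ccnb1 (-0.31, SE 0.16) had the lowest estimates, and the mismatch repair gene Msh6 (0.08) and Foxm1 (0.05) the highest of their lists. Of 23 mevalonate and cholesterol genes 16 had a lower and 7 a higher estimate, 20 were inside 2-fold, and the median was -0.08. Hsd17b7, a cholesterol synthesis enzyme gene, had 4.08, 5.18 and 4.45 CPM in control mice and 3.32, 3.11 and 2.31 CPM in p53mut mice (log2 fold change -0.65, SE 0.28), all lower in p53mut mice. The highest estimate of that list was for Acat2 (0.33). Within numbered pairs the list medians of mevalonate genes and of DNA replication and mitosis genes were lower in the p53mut mouse each time. For replication and mitosis the pair numbered 1 differed little, at -0.0103 in the control and -0.0151 in the p53mut mouse. With only 3 pairs, a direction shared by all of them is frequent by chance among 28 lists. The medians of the other lists of this paragraph had pairs in both directions.

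The replicate numbers of the labels paired the mice by the rule applied here, so the fit with the number as a block is given beside these results. That rule used the same counts that the block then tests, so the blocked p-values may be too small. With the replicate block, which was fitted to the 6 libraries, 3 genes were higher (0.018% of 16685 tested) and 13 lower (0.0779%) among DEGs. At adjusted p alone 21 genes were higher (0.126%) and 24 lower (0.144%), and this count of 45 was 8, 250 and 13 without the pair numbered 1, 2 and 3, which are alternatives chosen after seeing the data. Without the pair numbered 2 the count of DEGs was 81, and it was 8 without the pair numbered 1 and 4 without the pair numbered 3. Of 12160 protein-coding genes 2 were DEGs, Tmem94 and Gm10801.

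Tmem94, which encodes a membrane protein of the endoplasmic reticulum, lies at chr11:115765433-115799366, on the chromosome of Trp53. It had 192, 235 and 152 CPM in control mice and 603, 799 and 428 CPM in p53mut mice. The 3 p53mut mice lay far above the controls, and the order of the mice was the same in both groups. The log2 fold change was 1.66 (SE 0.52, adjusted p = 1.00) in the fit to all libraries and 1.63 (SE 0.07, adjusted p = 1.27e-09) with the replicate block. It was also called after leaving out each numbered pair in turn, with estimates of 1.57 to 1.71. The Nras G12D mice had 68.4 to 209 CPM and the NPmut mice 255 to 947 CPM. Caskin2, the neighboring gene whose end overlaps that of Tmem94 on the other strand, had a log2 fold change of 0.19 (SE 0.19). Where in Tmem94 the reads fell was not measured by counts per gene.

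Txnip, which encodes an inhibitor of thioredoxin and of glucose uptake, had 116, 112 and 137 CPM in control mice and 189, 169 and 277 CPM in p53mut mice. Its paralog Arrdc4, another arrestin-domain gene, had 11.4, 9.86 and 16.3 CPM against 23.9, 19.8 and 24.0 CPM. Neither gene overlapped between the groups. Nras G12D mice, without mutant p53, had 224, 242 and 168 CPM of Txnip and 26.4, 26.5 and 18.5 CPM of Arrdc4, which overlapped with the p53mut mice. With the replicate block the log2 fold changes were 0.77 for Txnip (adjusted p = 0.000346) and 0.87 for Arrdc4 (adjusted p = 0.013), under 2-fold, with SEs of 0.08 and 0.15, and neither passed in the fit to all libraries. Without the pair numbered 1 neither passed, and the adjusted p of Txnip was 0.092 at a log2 fold change of 0.80, so the estimate was not smaller there. Both genes are known targets of the glucose-sensing factor MondoA, and their promoters are shown since they moved together. The 250 bases before each RefSeq start (GRCm38.p6) were searched on both strands for CACNNGNNNNNCACNNG, the paired carbohydrate response element. Txnip (chr3:96557707-96557956, plus strand) held 1 match, in capitals, from 85 to 69 bases before the start, and Arrdc4 (chr7:68749239-68749488, minus strand) held 0.
Txnip: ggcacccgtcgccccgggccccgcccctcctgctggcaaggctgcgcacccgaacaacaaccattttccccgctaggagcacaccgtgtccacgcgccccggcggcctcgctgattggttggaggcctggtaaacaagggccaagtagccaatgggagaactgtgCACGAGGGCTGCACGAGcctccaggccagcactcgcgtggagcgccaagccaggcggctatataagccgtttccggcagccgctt
Arrdc4: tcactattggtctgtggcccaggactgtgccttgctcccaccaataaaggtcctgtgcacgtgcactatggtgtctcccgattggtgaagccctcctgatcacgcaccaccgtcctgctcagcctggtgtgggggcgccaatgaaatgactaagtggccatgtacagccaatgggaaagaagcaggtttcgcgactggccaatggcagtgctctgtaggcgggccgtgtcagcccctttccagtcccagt
The motif was found in 0.91% of the 32851 promoters.

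Other protein-coding genes passed the adjusted p-value with the replicate block below 2-fold, apart from Gm10801, and none of those named next passed when both mice numbered 1 were left out, except Gm10801 and Gm10800. The transcriptional repressor gene Klf11 had 10.1, 11.1 and 13.8 CPM in control mice and 15.3, 21.4 and 25.1 CPM in p53mut mice. The p53mut mice were all higher for Klf11, with a blocked log2 fold change of 0.80 (SE 0.14, adjusted p = 0.0224). Nras G12D mice overlapped with them at 18.2, 20.1 and 14.2 CPM. The chaperone gene Hspa8 had 600, 592 and 531 CPM against 758, 843 and 620 CPM, and the integrin gene Itgb3 of the platelet fibrinogen receptor had 25.1, 21.7 and 33.7 CPM against 32.6, 37.3 and 52.3 CPM. The groups did not overlap for Hspa8, while Itgb3 overlapped between groups and was higher in the p53mut mouse of each numbered pair. Their blocked log2 fold changes were 0.36 (adjusted p = 0.045) and 0.60 (adjusted p = 0.0279). Hist1h2ah, 1 of the near-identical histone H2A genes whose reads may be split between copies, passed at 0.56, as did Hist1h2ai (0.43) and Hist1h2an (0.46), while Hist1h2ap was lower (-0.56, adjusted p = 0.0328), so the direction differed within that family. Of further coding genes Usp54 (0.63), Frmd4a (0.49), Klhl24 (0.44) and Zfp36l2 (0.38) were higher, and the paraspeckle gene Pspc1 (-0.50) and the mitochondrial leucyl-tRNA synthetase gene Lars2 (-0.39) were lower. Nras G12D mice overlapped with the p53mut mice for these genes, as at 164.9, 186.3 and 157.2 CPM of Frmd4a against 168.6, 152.4 and 188.5 CPM. In all 14 protein-coding genes were higher and 7 lower at this threshold, and neither Gm10801 nor its near-identical copy Gm10800 (-0.98) can be assigned reads with certainty.

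Most DEGs of the blocked fit were not coding genes. The lower ones held 8 TEC loci, which are transcripts that the annotation lists as still to be experimentally tested, beside 3 pseudogenes, and 2 of the 3 higher ones were pseudogenes. None of the 8 TEC loci was a DEG without the pair numbered 1 or without the pair numbered 3. Of the higher pseudogenes, AC165960.1 on chromosome 17 had 1.73, 1.54 and 1.43 CPM in control mice and 14.8, 16.0 and 9.01 CPM in p53mut mice. Its blocked log2 fold change was 3.04, and it was also called by DESeq2 and in the fit to 6 libraries without the block. Nras G12D mice, without mutant p53, had 2.18, 1.243 and 9.015 CPM, so their mouse 3 was at the level of p53mut mouse 3. NPmut mice had 1.77, 5.415, 1.722 and 1.77 CPM. Gm14633 on chromosome X had 3.16, 6.66 and 2.41 CPM in control mice against 10.6, 11.5 and 8.89 CPM in p53mut mice. Of the lower loci Gm43712 had 19.3, 13.9 and 13.7 CPM against 6.28, 3.03 and 6.30 CPM (blocked log2 fold change -1.61), and the others with the largest changes were 2900092N22Rik (-2.20), Gm38236 (-1.90), Gm2253 (-1.76) and Gm43417 (-1.51). Pseudogenes share reads with their parent genes, and these values are uncertain for that reason. As a class TEC loci had lower values. Their summed level was 3917, 3166 and 4717 CPM of the library total in control mice and 2740, 2742 and 2876 in p53mut mice, without overlap, and the median blocked log2 fold change of 824 TEC loci was -0.55 beside 0.01 for protein-coding genes. Reads on olfactory and vomeronasal receptor genes, which blood cells are not known to use, summed to 142, 202 and 109 CPM in control mice and 108, 147 and 63.1 CPM in p53mut mice. The p53mut mouse was lower in each numbered pair, while the groups overlapped when unpaired, and the part of such reads in the calls at TEC loci was not tested.

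**Figure D4:**
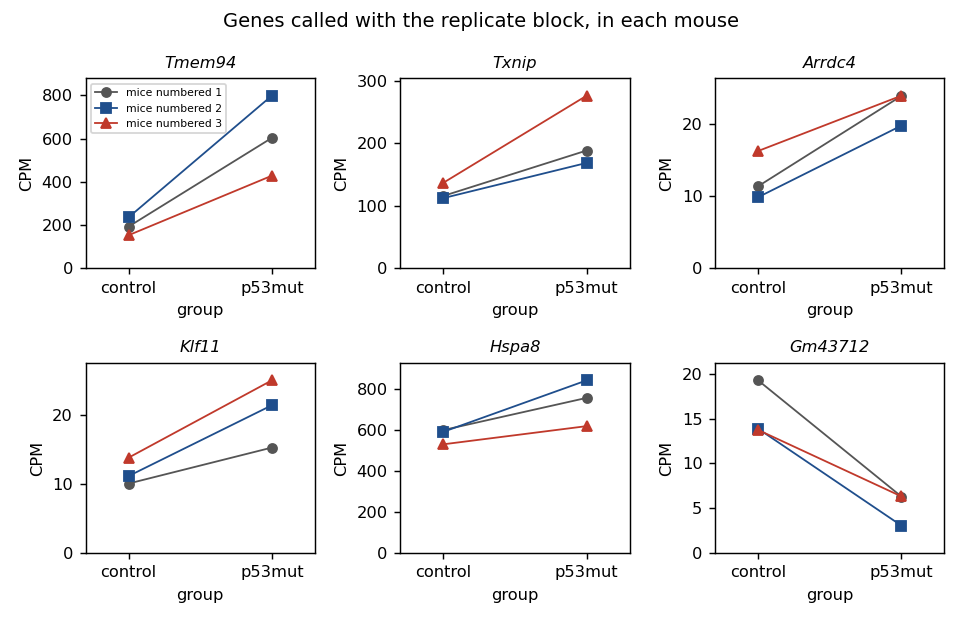
CPM of 6 genes that passed the adjusted p-value with the replicate block, in control and p53mut mice, with a line joining mice of the same number and the vertical axis starting at 0. Tmem94 spans 152 to 235 CPM in control and 428 to 799 CPM in p53mut mice.

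The genes with the smallest p-values and no overlap between groups in the fit to all libraries were also examined, and none passed the adjusted test there. The mitotic kinase gene Mastl had 26.6, 28.8 and 28.0 CPM in control mice and 21, 18 and 19.4 CPM in p53mut mice, a log2 fold change of -0.51 (95% interval -0.76 to -0.26). The collagen receptor gene Lair1 had 42.4, 35.7 and 40.6 CPM against 29.2, 30.5 and 23.7 CPM (-0.51, 95% interval -0.80 to -0.22). Pnrc1, a nuclear receptor coactivator gene, had 78.4, 81.5 and 75.4 CPM against 93.2, 95.9 and 116 CPM (0.37, 95% interval 0.15 to 0.59), and Ccdc117 was similar in size (0.44, SE 0.13). Tlr12, a receptor for a parasite protein, had 0.98, 0.80 and 0.72 CPM against 1.40, 2.88 and 4.16 CPM, and the RNase P RNA Rpph1 had 2.24, 2.22 and 2.41 CPM against 4.43, 6.51 and 6.76 CPM. The pseudogenes Gm2253 (-1.77) and Gm10222 (-2.43) completed the list with AC165960.1 and Gm43712. Nras G12D mice had 19.7, 20.1 and 22.4 CPM of Mastl, 29.8, 22.1 and 25.7 CPM of Lair1, 115, 117 and 104 CPM of Pnrc1 and 5.05, 6.41 and 5.41 CPM of Rpph1, which overlapped with the p53mut mice. For Gm43712 they had 21.9, 19.8 and 16.3 CPM, above all p53mut mice. They were also above all p53mut mice for Gm2253 (3.56, 2.16 and 3.61 CPM against 1.21 to 1.33) and Gm10222 (3.33, 4.51 and 3.35 CPM against 0.37 to 2.07). Both genotypes were set against the same 3 control mice, and a low or high control value acts on both.

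The medians of the cell identity lists overlapped between the groups, while some single members did not. Those were 2 higher monocyte genes, 1 higher MPP gene, 1 higher erythroid gene, 2 lower B lymphoid genes and 1 lower stromal gene, where 5.41% of all genes tested were higher and 5.72% lower without overlap. Within numbered pairs the list median was higher in the p53mut mouse each time for megakaryocyte, mast cell and basophil, and stromal and endothelial genes. The other identity lists had pairs in both directions, and the paired differences of list medians were not tested. A direction shared by 3 pairs is frequent by chance when many lists are compared. Lowest and highest members are given here among those with a mean of at least 1 log2 CPM over the 13 libraries, and weaker members may lie beyond them. The 23 tested HSC genes had a median log2 fold change of 0.13, and the list median in p53mut mice 1, 2 and 3 was 0.11, -0.36 and 0.36 from the control mean on the log2 scale, so the p53mut mice spanned the controls. Without p53mut mouse 3 the median was -0.02. Its extremes were the repressor gene Gfi1b (-0.31) and the angiopoietin receptor gene Tek (0.34). The 17 megakaryocyte genes had a median of 0.23, with 16 higher estimates and p53mut mice at 0.33, -0.15 and 0.58, while control mouse 3 was at 0.35, and the median was 0.07 without p53mut mouse 3. Control mice 1 and 2 were at 0.00 and -0.16. The p53mut mouse was thus higher in each numbered pair, by little in the pair numbered 2. Gp5 was the lowest of them (-0.15) and Itgb3 the highest (0.60), which passed with the replicate block. For the 21 neutrophil and GMP genes 19 estimates were lower, with a median of -0.20. Control mouse 1 was high on that list at 0.35, and without it the median was 0.05, so this direction rested on 1 library. It was lowest for the ficolin gene Fcnb (-0.95, SE 0.73) and highest for the collagenase gene Mmp8 (0.14). In bulk cells, fewer cells of a type and less RNA per cell cannot be told apart. The cytokine receptor gene Flt3 of multipotent progenitors had 99.4, 54.3 and 61.8 CPM against 104, 77.2 and 126 CPM (0.52, SE 0.33). It was the highest of the 16 MPP and lymphoid genes (median 0.15, lowest Rag2 at -0.14) and of the 11 dendritic cell genes (median -0.09, lowest Zbtb46 at -0.27). Among 20 erythroid genes, with a median of 0.01, Trim10 (-0.58) and the anion exchanger gene Slc4a1 (0.23) were the extremes. The 12 mast cell and basophil genes had a median of 0.23, from the IgE receptor gene Ms4a2 (-0.09) to the IL-33 receptor gene Il1rl1 (0.42). The 19 monocyte and macrophage genes had a median of 0.07, from Adgre1 (-0.22) to Cd68 (0.29). The 11 B lymphoid genes had a median of -0.27, from Igkc (-0.55) to Dntt (0.38), where leaving out 1 mouse gave -1.30 to -0.17 for Igkc and 0.14 to 0.68 for Dntt, the 9 T and NK genes one of -0.06, from Nkg7 (-0.25) to Lat (0.47), and the 12 stromal and endothelial genes one of 0.00, from Vcam1 (-0.52) to Pdgfrb (0.54). These lists held no DEG in the fit to all libraries or with the replicate block. In the blocked fit without the pair numbered 2, the neutrophil and GMP genes Cebpe and Fcnb were lower DEGs. Their log2 fold changes there were -1.14 (adjusted p = 0.00461) and -1.41 (adjusted p = 0.0419), in an alternative chosen after seeing the data.

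Signaling, inflammatory and stress genes were also without a DEG in the fit to all libraries, and the lowest and highest members are again those at 1 log2 CPM or more. The median was 0.10 for 27 NF-κB targets and cytokines, 0.10 for 35 interferon-stimulated genes, 0.09 for 21 Toll-like receptors and adaptors, 0.25 for 10 MHC class II genes, 0.14 for 17 genes of ERK feedback and output, 0.01 for 22 immediate-early genes, 0.14 for 18 heat shock chaperones and -0.04 for 20 glycolysis genes. The inhibitor of NF-κB gene Nfkbia had 16.6, 16.9 and 12.2 CPM in control mice and 18.8, 22.6 and 20.2 CPM in p53mut mice (0.43, SE 0.20), and was higher in every p53mut mouse. H2-Eb1, a beta chain gene of MHC class II, had 1.84, 2.90 and 1.79 CPM against 4.14, 3.99 and 3.23 CPM (0.80, SE 0.33), also without overlap. The 10 MHC class II genes summed to 77.8, 81.5 and 78.5 CPM in control mice and 92.7, 99.8 and 96.0 CPM in p53mut mice, with the p53mut mice above the controls, while the list medians of the mice overlapped. The regulator of that class, Ciita, was the lowest member at that level (-0.10). The ERK inhibitor gene Spry1 had the highest estimate of its list at that level (0.76, SE 0.35) and Nf1 the lowest (-0.04). Interferon-stimulated genes ran from Mx2 (-0.53) to Iigp1 (0.61) and the list of Toll-like receptors and adaptors, which does not hold Tlr12, from Cd180 (-0.19) to Tlr7 (0.62), each at that level. Klf6 had the highest estimate of the immediate-early genes (0.46). The lowest was that of Atf3 (-0.77, SE 1.65), which had 9, 8 and 4 counts against 0, 10 and 0 counts, reached that level only through NPmut mice and was not tested in the fit to the 6 libraries, so it gives no bound. The estimates ran for glycolysis genes from the lactate exporter gene Slc16a3 (-0.54) to the glucose transporter gene Slc2a3 (0.20). Chaperones ran from Atf4 (-0.08), a stress transcription factor gene kept on that list, to Hspa1a (0.72, SE 1.16, and -0.35 with the replicate block), and Hspa8 passed with the block. Of 20 tested genes that the study names, 14 had a higher and 6 a lower estimate, with a median of 0.12. They ran from the cytokine gene Tnf (-0.59) to Nfkbia, with Il6ra (0.31), Rela, Cd74 (0.42), Rasgrp4 (0.26), Gata2 (0.25), Irf5 (0.25), Met (0.21), Csf1r (0.15), Tlr1 (0.13), Nfkb1 (0.10), Spi1 (0.04), Nras (0.03), Junb (0.02), Dab2ip (0.00), Ezh2 (-0.01), Irf8 (-0.06), Gata1 (-0.14) and Klf4 (-0.17) between them. Leaving out 1 mouse moved several of these widely, as for Cd74 from 0.03 to 0.67. That list was drawn here from the study's text, its background included, and was not made as a test of p53mut against control. Immediate-early genes split the p53mut mice, with mouse 2 at 0.57 and mice 1 and 3 at -0.24 and -0.31 from the control mean. Within numbered pairs the list medians of MHC class II genes, heat shock chaperones and genes the study names were higher in the p53mut mouse each time. As above, 3 pairs share a direction frequently by chance, and this was not tested. The other lists of this paragraph had pairs in both directions.

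**Figure D5:**
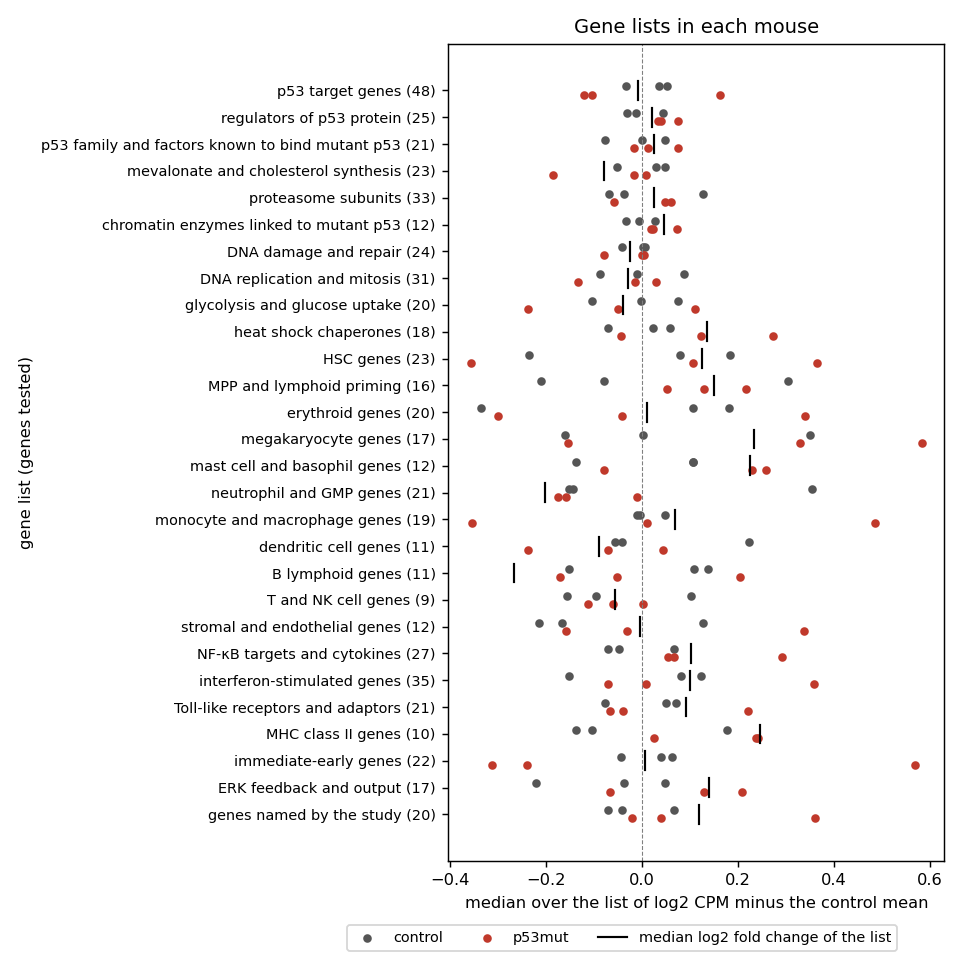
For each gene list, points give the median over tested genes of log2 CPM minus the control mean in each control (grey) and p53mut (red) mouse, and the black line is the median fitted log2 fold change of the list. Mice of both groups overlap on all 28 lists when unpaired, and p53mut mouse 2 stands apart on immediate-early genes at 0.57. Within numbered pairs the p53mut mouse is higher each time for megakaryocyte, mast cell, stromal, MHC class II, chaperone and study-named lists. It is lower each time for the mevalonate and the DNA replication lists, and the other lists have pairs in both directions.

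The p53mut mice were also compared with the other genotypes in the same fit. Against Nras G12D mice, 0 genes were DEGs with edgeR (0% of 17795), 850 had an unadjusted p under 0.05, and DESeq2 called 22. Between NPmut and p53mut mice 927 genes were DEGs (5.21%), with 375 higher and 552 lower in NPmut mice. The NPmut mice were moribund and had no pI-pC, so genotype, disease and treatment cannot be told apart there.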

How the data were processed

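RNA-Seq of sorted Lin- cKit+ bone marrow HSPCs was analysed from 13 mice. The authors deposited 1 table of raw read counts per gene (54838 genes), and the submitters' processing notes name STAR 2.6.1d, R 3.6.1, DESeq2 1.26.0 and GRCm38.p6. The counting program and strand setting were not given in the sources used here, so reads of overlapping genes on opposite strands may not be separated. Gene names, classes and coordinates came from GENCODE M21 (GRCm38), which held 54809 of the IDs, and promoters from RefSeq (GRCm38.p6).

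Counts were fitted in R 4.3.3 with edgeR 4.0.16 (TMM, filterByExpr, robust quasi-likelihood F test) over all 13 libraries with group means only, and p-values were adjusted by Benjamini-Hochberg over all genes tested. DEGs were genes with adjusted p under 0.05 whose log2 fold change was 1 or more in size. The 95% intervals used the SE, taken as the absolute log2 fold change over the square root of F, and the t quantile of the fit. They are not adjusted for the number of genes. SE and intervals in the text come from that fit unless the block is named. Log2 CPM per mouse used a prior count of 2. The scripts were tested on simulated data. DESeq2 1.42.0 and limma 3.58.1 were used as alternatives, beside RLE size factors, library totals, other filters, fewer libraries, sex as a term, the replicate block and leaving out each mouse in turn. The 28 gene lists are those given by name in the results.

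The correlation across genes of deviations from the group mean was 0.166, 0.163 and 0.152 for control and p53mut mice with the same number and -0.0598 to -0.105 for the other pairs. On autosomes it was 0.101, 0.159 and 0.145. Every same-number pair was above 0.1, so the numbers were taken to pair the mice. The pairing comes from the data. The labels do not say what a number shares. The blocked fit used the 6 libraries and left 2 residual degrees of freedom.

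The members and gene lists were chosen with earlier results of these data known. Genes were named by a rule: Trp53; the 5 smallest p-values in each direction without overlap between groups at 1 log2 CPM or more; up to 5 DEGs in each direction of the blocked fit with the largest changes at 1 log2 CPM or more; the highest and lowest member of each list at 1 log2 CPM or more; p53-related genes whose interval left out 0; and genes the study names. Other named genes, such as Txnip, Arrdc4, Klf11, Hspa8, Per1 and single p53 targets, were chosen after their values were seen. No libraries of a group were identical, and their counts differed beyond sampling noise.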

Additional observations from a re-analysis of the deposited data

How the results depend on the processing

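The count of 0 DEGs held with RLE size factors, library totals, a minimum of 10 counts in every library, the 9 treated libraries, and sex as a term in 13 libraries. It was 2 with DESeq2, 9 without a filter, 1 in the 6 libraries with or without sex, and 0 to 1 when a control or p53mut mouse was left out. The 1 gene in the 6 libraries was AC165960.1, and the 1 gene without control mouse 3 was Gm12895. With the replicate block it was 16. Alternatives chosen after seeing the data gave 0 for protein-coding genes alone, and, with the replicate block, 24 on the genes of the 13-library filter, 30 with library totals and 2 for protein-coding genes. With the replicate block and a pair left out it was 8, 81 and 4 without the mice numbered 1, 2 and 3. The 16 blocked DEGs were all called with the 13-library genes and with library totals, and without the mice numbered 2, while 3 of them were called without the mice numbered 1 or 3. The count within 2-fold was 11277 and ranged from 10374 to 10584 without 1 mouse, and it stayed within 1.5 times of this at all settings (12121 with the replicate block). The Trp53 log2 fold change was 0.10 to 0.20 and passed at no setting (0.13 with the replicate block). Against Nras G12D mice the DEGs were 48 without a filter and 22 with DESeq2, and the NPmut count was 597 at 10 counts in every library, where fewer genes were tested. No reversed estimate of a single gene passed the test. On the log2 scale these were Cdkn1a 0.00179 with DESeq2, Bbc3 -0.0761, Pmaip1 -0.00179, Dab2ip 0.000122, Hspa1a -0.35, Tlr1 -0.043 with the replicate block, Bbc3 -0.0835, Dab2ip 0.00806 with sex in 6 libraries, Dab2ip 0.0122 with sex in 13 libraries, and Junb -0.0107, Nras -0.00285 with library totals. Leaving out 1 mouse at a time gave ranges of log2 fold changes that crossed 0 for Cdkn1a -0.502 to 0.29, Mdm2 -0.141 to 0.057, Ccng1 -0.193 to 0.0879, Bax -0.0377 to 0.106, Bbc3 -0.636 to 0.487, Pmaip1 -0.153 to 0.343, Kit -0.0302 to 0.229, Adgre1 -0.494 to 0.0647, Aen -0.107 to 0.00654, Atf4 -0.167 to 0.0178, Ciita -0.205 to 0.155, Csf1r -0.293 to 0.364, Dab2ip -0.122 to 0.177, Ezh2 -0.0433 to 0.033, Foxm1 -0.0597 to 0.146, Gata1 -0.348 to 0.0375, Gp5 -0.285 to 0.0169, Hspa1a -1.53 to 1.31, Irf5 -0.0872 to 0.464, Irf8 -0.433 to 0.151, Junb -0.146 to 0.131, Klf4 -1.47 to 0.261, Met -0.158 to 0.392, Mmp8 -0.237 to 0.699, Ms4a2 -0.251 to 0.0356, Nf1 -0.0714 to 0.00482, Nras -0.0237 to 0.0873, Rag2 -0.4 to 0.182, Slc2a3 -0.0393 to 0.425, Spi1 -0.178 to 0.18, Tek -0.00273 to 0.579, Tlr1 -0.574 to 0.595, S100a9 -0.964 to 0.484 and Ighm -0.321 to 0.124. They kept their sign and moved by more than 1.5 times for Zmat3 -1.14 to -0.378, Ddit4 0.617 to 1.43, Trp53cor1 -1.19 to -0.56, Itgb3 0.389 to 0.805, Gm10800 -1.39 to -0.477, Flt3 0.348 to 0.834, Pdgfrb 0.316 to 0.775, Cop1 -0.388 to -0.104, Ppp1r13b 0.174 to 0.365, Fcnb -1.46 to -0.663, Caskin2 0.117 to 0.298, Acat2 0.171 to 0.481, Ash2l -0.219 to -0.066, Atf3 -5.82 to -0.105, Cd180 -0.403 to -0.0224, Cd68 0.137 to 0.371, Cd74 0.0256 to 0.665, Cd80 -6.07 to -2.57, Dntt 0.139 to 0.682, Gata2 0.0982 to 0.457, Gfi1b -0.473 to -0.109, Igkc -1.3 to -0.166, Iigp1 0.33 to 0.976, Il1rl1 0.198 to 0.609, Il6ra 0.0734 to 0.452, Klf6 0.251 to 0.566, Lat 0.237 to 0.689, Msh6 0.0315 to 0.125, Nfkb1 0.0505 to 0.195, Nkg7 -0.358 to -0.0395, Psma2 0.117 to 0.269, Psma5 -0.365 to -0.026, Rasgrp4 0.0697 to 0.517, Slc4a1 0.00328 to 0.586, Tnf -0.793 to -0.388, Trim10 -0.92 to -0.354, Vcam1 -0.741 to -0.24, Zbtb46 -0.452 to -0.144 and Usp54 0.4 to 0.794. Of list medians, that of regulators of p53 protein was -0.00966 with library totals and that of neutrophil and GMP genes -0.301 without a filter. Without 1 mouse the medians ranged as follows: regulators of p53 protein 0.0247 to 0.0598, chromatin enzymes linked to mutant p53 0.0324 to 0.0779, MPP and lymphoid priming 0.0883 to 0.253, neutrophil and GMP genes -0.597 to 0.0523, T and NK cell genes -0.3 to 0.0264, Toll-like receptors and adaptors -0.119 to 0.219, ERK feedback and output 0.0115 to 0.424, p53 target genes -0.0643 to 0.0407, p53 family and factors known to bind mutant p53 -0.00511 to 0.059, mevalonate and cholesterol synthesis -0.124 to -0.0249, proteasome subunits -0.0203 to 0.0847, DNA damage and repair -0.035 to 0.0108, DNA replication and mitosis -0.065 to 0.0256, glycolysis and glucose uptake -0.121 to 0.0354, heat shock chaperones 0.0606 to 0.252, HSC genes -0.0225 to 0.247, erythroid genes -0.181 to 0.138, megakaryocyte genes 0.0689 to 0.456, mast cell and basophil genes 0.0834 to 0.337, monocyte and macrophage genes -0.14 to 0.259, dendritic cell genes -0.159 to -0.0138, B lymphoid genes -0.366 to -0.11, stromal and endothelial genes -0.222 to 0.0896, NF-κB targets and cytokines 0.0796 to 0.15, interferon-stimulated genes 0.0126 to 0.159, MHC class II genes 0.177 to 0.282, immediate-early genes -0.279 to 0.201 and genes named by the study 0.00496 to 0.182. For all these differences the cause was not tested.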
